A study of Mus musculus with 4 samples.

Results

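Transcripts of 31 genes of the endoplasmic reticulum (ER) stress response were followed in mouse liver. The genes were chosen by name: 14 ER chaperones and folding enzymes, 7 genes of ER-associated degradation, 4 stress sensors and transcription factors, and 6 genes of the ATF4-CHOP arm. All 31 were among the 18193 named genes on the array, and all 31 were also among the 11993 genes left after dim genes were removed.

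Liver RNA was pooled and measured on 4 Affymetrix mouse arrays, 1 for each group and day. The delta MET + EGFRi mice, here called treated, had the genotype Metff/ff:ERCre+/+, received tamoxifen on 5 days to delete exon 16 of Met, and after 4 days ate food with canertinib, an inhibitor of EGFR and its relatives, aimed at 80 mg/kg/day. Control mice were littermates of the same genotype that were given corn oil and neither drug. Livers were taken at day 7 and day 10, counted in the treated mice from the start of the canertinib diet. The effects of losing Met, of tamoxifen, of canertinib and of altered feeding cannot be told apart in this design. The labels call the inhibition systemic, so cells other than hepatocytes are reached too, and they do not name the promoter that drives Cre. The number of animals in a pool is not given in the labels, and each group has 1 array a day, so a difference between the treated and control arrays of the same day carries no error, and the spread within a group includes any change between the days.

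Secreted and membrane proteins fold in the ER with the help of chaperones such as BiP, the product of Hspa5. When unfolded protein accumulates, the sensors IRE1 (Ern1), PERK (Eif2ak3) and ATF6 raise the supply of chaperones and of the machinery that exports misfolded protein for degradation, and PERK also slows translation and favours synthesis of the transcription factor ATF4. Hepatocytes secrete most plasma proteins and depend on this system. Splicing of Xbp1 mRNA by IRE1, translation of Atf4 and cleavage of ATF6 protein are not measured by these probes.

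The 4 arrays were alike in scale, with median signals of 210.5 to 223.9 units, and r between any pair of arrays, over the log2 values of all probe sets, was 0.89 to 0.913. Met, the gene targeted by the deletion, had 2433 and 2829 units in treated livers at day 7 and day 10, against 975.5 and 1271 in control livers. Its log2 difference of 1.24 ± 0.23 (SE) did not pass limma's test (adjusted p = 0.103). The position of its probes relative to exon 16 was not used here, so this signal does not check the deletion. Hepatocyte markers (Alb, Ttr, Apoa1, Serpina1c, Tat and Cps1) were bright on all arrays, with summed signals of 420521 and 353274 in treated and 365585 and 349409 in control livers. All 12 macrophage and Kupffer cell markers were higher in treated livers at both days, with sums of 48907 and 49701 units, against 21440 and 12111 in control livers. Of 8 neutrophil markers 6 were higher at both days, with sums of 9779 and 13178 in treated and 2863 and 2757 in control livers, and Camp was at or under the floor of 64.8 units on all 4 arrays. The 4 stellate cell markers summed to 12501 and 11764 in treated and 6352 and 6856 in control livers. Of these, 1 (Dcn) was higher and 2 were lower at both days. Dcn made up most of the sum, with 11905 and 10839 units in treated and 5198 and 5879 in control livers. The 5 endothelial markers summed to 6227 and 8654 in treated and 6808 and 5968 in control livers. Of these, 1 was higher and 0 were lower at both days. The part of these cells in the ER gene signals was not tested, and in whole liver fewer cells of a type and less RNA per cell cannot be told apart.

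Over both days none of the 31 genes passed. With limma across all 11993 genes and a Benjamini-Hochberg adjusted p under 0.05, 0 of the 31 were higher and 0 were lower, against 0.375% and 0.283% of all genes. The lowest adjusted p was 0.166, for Eif2ak3. At an unadjusted p under 0.05, 4 of the 31 were higher (Dnajb9, Eif2ak3, Xbp1 and Ppp1r15a) and 2 lower (Ern1 and Asns), against 5.93% and 6.15% of all genes. Both treated arrays lay above both control arrays for 9 of the 31 genes, where 20.3% of all genes did so, and below them for 3, where 24.1% of all genes did.

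The days differed in direction. At day 7 the median log2 difference of the 31 genes was -0.12, with 13 above 0, and at day 10 it was 0.66, with 27 above 0. Over all 11993 genes the medians were -0.06 and 0.01, and 45.1% and 50.6% of genes lay above 0. By a size rule of 2-fold, which involves no test, 2 of the 31 were higher at day 7 (Herpud1 and Ppp1r15a; 4.6% of all genes) and 1 was lower (Derl3; 5.16% of all genes). At day 10, 7 were at least 2-fold higher (Pdia6, Dnajb9, Sdf2l1, Manf, Derl3, Eif2ak3 and Xbp1; 5.84% of all genes) and 0 at least 2-fold lower (4.91% of all genes). At 1.5-fold the counts at day 7 were 4 higher and 3 lower, against 12.1% and 15.4% of all genes. At day 10 they were 17 higher, or 54.8% of the 31, and 1 lower, against 14.6% and 13.5% of all genes. At 3-fold 0 were higher and 1 lower at day 7 (1.78% and 1.61% of all genes), and 1 was higher and 0 lower at day 10 (2.05% and 1.64% of all genes), the 1 being Derl3 at both days. The difference from control was at least 2-fold larger at day 10 than at day 7 for 8 genes, or 25.8%, against 9.02% of all genes. It was at least 2-fold smaller at day 10 for 1, Herpud1, against 7.02% of all genes. Treated signals were higher at day 10 than at day 7 for 29 of the 31 genes (52.5% of all genes), and control signals for 17 (47.6% of all genes). No test of the change between the days was possible with 1 array a side.

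**Figure D1:**
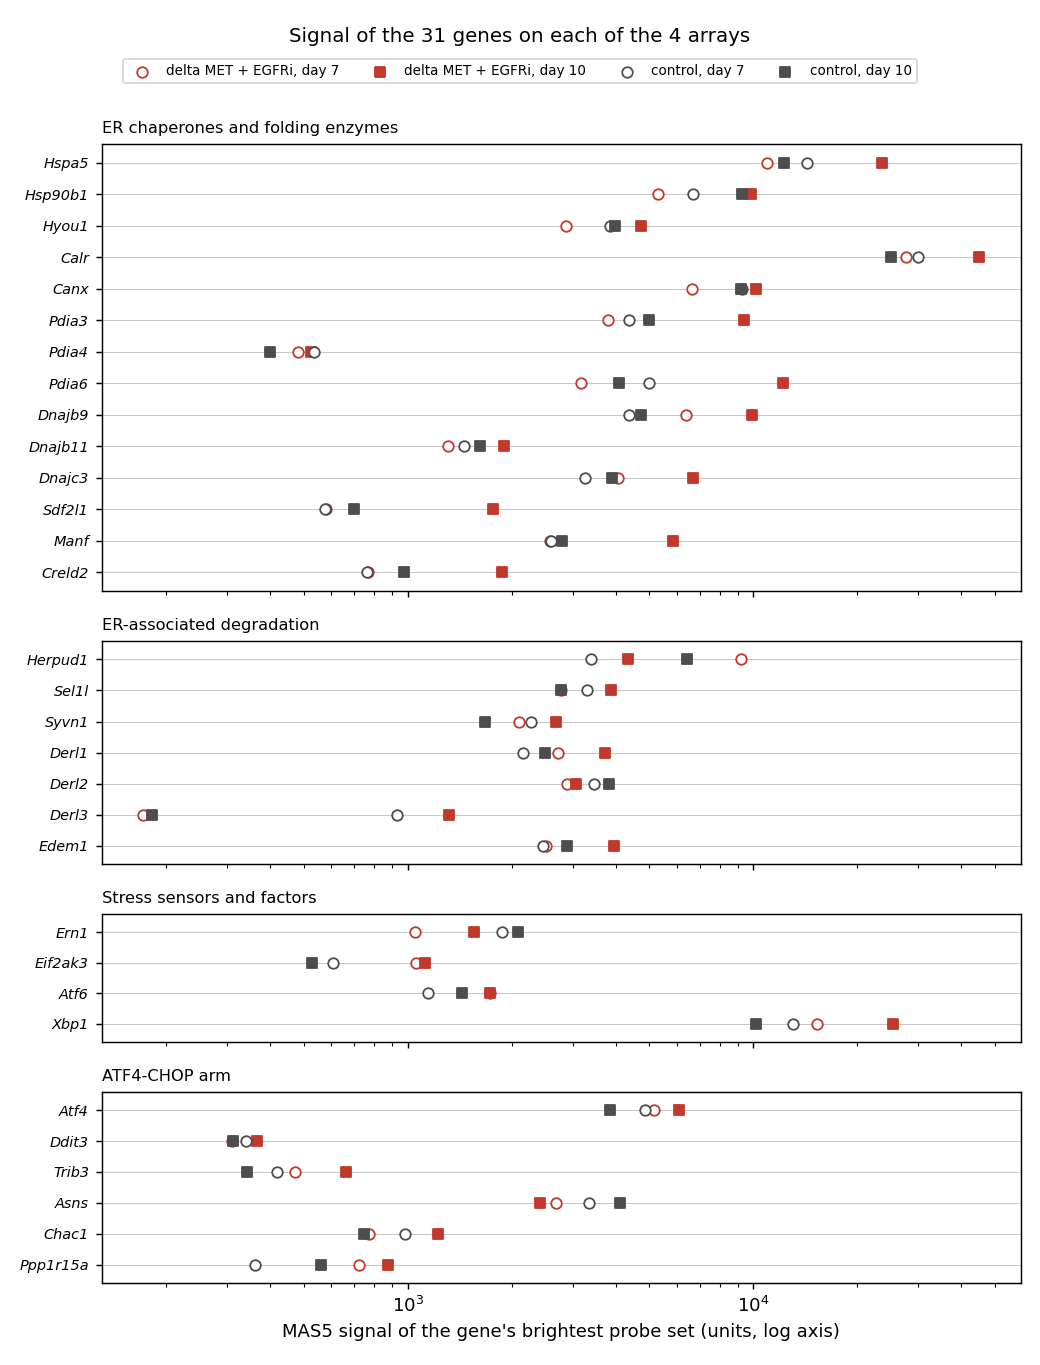
MAS5 signal (horizontal log axis, units) of the brightest probe set of each of the 31 genes, with red symbols for delta MET + EGFRi and grey for control, open circles for day 7 and filled squares for day 10. For most chaperones the red square of day 10 lies to the right of the other 3 symbols, as for Pdia6 at 12175 units.

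The treated array of day 10 was also set against both control arrays. In that limma fit, whose error comes from the control arrays and which assumes that the lone treated array varies as the control arrays do, 7 of the 31 genes rose and 0 fell, against 1.64% and 2.24% of all genes. The 7 were Hspa5, Pdia3, Pdia6, Dnajb9, Sdf2l1, Manf and Xbp1, at adjusted p from 0.00741 to 0.0451. At an unadjusted p under 0.05 the counts were 16 higher and 1 lower, against 7.34% and 8.78% of all genes. For the treated array of day 7 against both control arrays 0 of the 31 passed in either direction, against 1.45% of all genes higher and 1.3% lower, and the lowest adjusted p was 0.119. At an unadjusted p under 0.05 limma gave 2 higher and 3 lower there, against 6.67% and 7.67% of all genes. These 2 fits share the control arrays.

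ER chaperones and folding enzymes were the group with the most uniform day 10 values. All 14 were higher in treated livers at day 10, by log2 differences of 0.08 to 1.57 (median 0.88), against 50.6% of all genes. At day 7, 10 of the 14 were lower, with a range of -0.66 to 0.54 (median -0.15). Of all 11993 genes 6580 were lower at day 7. Of the 8 genes whose difference grew at least 2-fold between the days, 5 belonged to this group. The gap between the days was smallest for Dnajb11, at 0.38, and largest for Pdia6, at 2.23.

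Hspa5 encodes BiP, the main Hsp70 chaperone of the ER and a brake on all 3 sensors. Its signal at day 7 was 10920 units in treated and 14298.5 in control livers. At day 10 it was 23637 units in treated and 12220 in control livers, the highest of the 4 arrays being the treated one of day 10. The log2 differences were -0.39 and 0.95, and the treated array of day 10 exceeded both controls by 0.84. Over both days Hspa5 did not pass (0.28 ± 0.37, limma adjusted p = 0.806). Its 2 dimmer probe sets differed less at day 10, by 0.73 and 0.41, and by -0.11 and -0.07 at day 7.

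Pdia6, a protein disulfide isomerase that also acts on the sensors, showed the largest day 10 difference among the chaperones. Treated livers had 3161 units at day 7, below the 4995 of control livers, and 12175 at day 10, above the 4092 of control livers. It was 2.98-fold higher at day 10 and 1.58-fold lower at day 7. Against both controls the day 10 array was 2.69-fold higher (log2 1.43). A dimmer probe set of Pdia6 gave log2 differences of -0.86 and 0.25. Pdia3, which works with the lectin chaperones, had 3787 units in treated and 4360 in control livers at day 7, and 9366 in treated and 4984 in control livers at day 10. Its day 10 array lay 1.01 above both controls on the log2 scale. A dimmer probe set of Pdia3 gave -0.60 at day 7 and 0.30 at day 10.

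Sdf2l1, Manf and Creld2 encode small ER proteins known as strongly stress-induced, Sdf2l1 as a cofactor of BiP. At day 7 they differed from control by 0.01, -0.01 and 0.01 on the log2 scale, the closest agreement in the group. Sdf2l1 had 578.5 units in treated and 575.1 in control livers at day 7, and 1764 and 699 at day 10. Manf had 2575 in treated and 2590 in control livers at day 7, and 5865 and 2800 at day 10. Creld2 had 764.3 in treated and 759.8 in control livers at day 7, and 1872 and 971.7 at day 10. For all 3 the treated array of day 10 stood alone above the other 3 arrays. Against both controls the day 10 array was higher by 1.48 for Sdf2l1, 1.12 for Manf and 1.12 for Creld2 on the log2 scale.

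Among the J-domain cochaperones of BiP, Dnajb9 and Dnajc3 were higher at both days. Dnajb9 (ERdj4), which returns IRE1 to its BiP-bound state, had 6363 units in treated and 4362 in control livers at day 7, and 9891 and 4730 at day 10. Both treated arrays lay above both controls, and the log2 difference over both days was 0.80 ± 0.27 (limma adjusted p = 0.316). That of the day 10 array against both controls was 1.12. Dnajc3 had 4052 units in treated and 3262 in control livers at day 7, and 6677 and 3898 at day 10. All 4 of its other probe sets were higher at both days too, by 0.04 to 0.94 at day 7 and 0.88 to 1.09 at day 10. Dnajb11 (ERdj3) differed by -0.15 and 0.23.

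Calr and Canx are the lectin chaperones that hold newly made glycoproteins. Calr had 27563 units in treated and 30026 in control livers at day 7, and 44890 and 25053 at day 10, and its 2 other probe sets gave day 10 log2 differences of 1.17 and 1.34, beyond the 0.84 of the brightest. Canx, the membrane-bound relative, moved less, with 6649 units in treated and 9244 in control livers at day 7, and 10151 and 9202 at day 10. Hsp90b1, the ER member of the Hsp90 family, had 5299 in treated and 6683 in control livers at day 7, and 9818 and 9292 at day 10. Between the days its log2 signal changed by 0.89 in treated livers and by 0.48 in control livers. Its second probe set differed by 0.11 at day 10, and those of Canx by 0.13 and -0.24 at day 7 and by 0.58 and 0.03 at day 10. Hyou1, a nucleotide exchange factor of BiP, differed by -0.43 at day 7 and 0.25 at day 10, and by -0.07 and 0.14 in a dimmer probe set. Pdia4 differed by -0.15 and 0.40 in its brightest probe set and by -0.85 and 1.54 in a dimmer one.

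**Figure D2:**
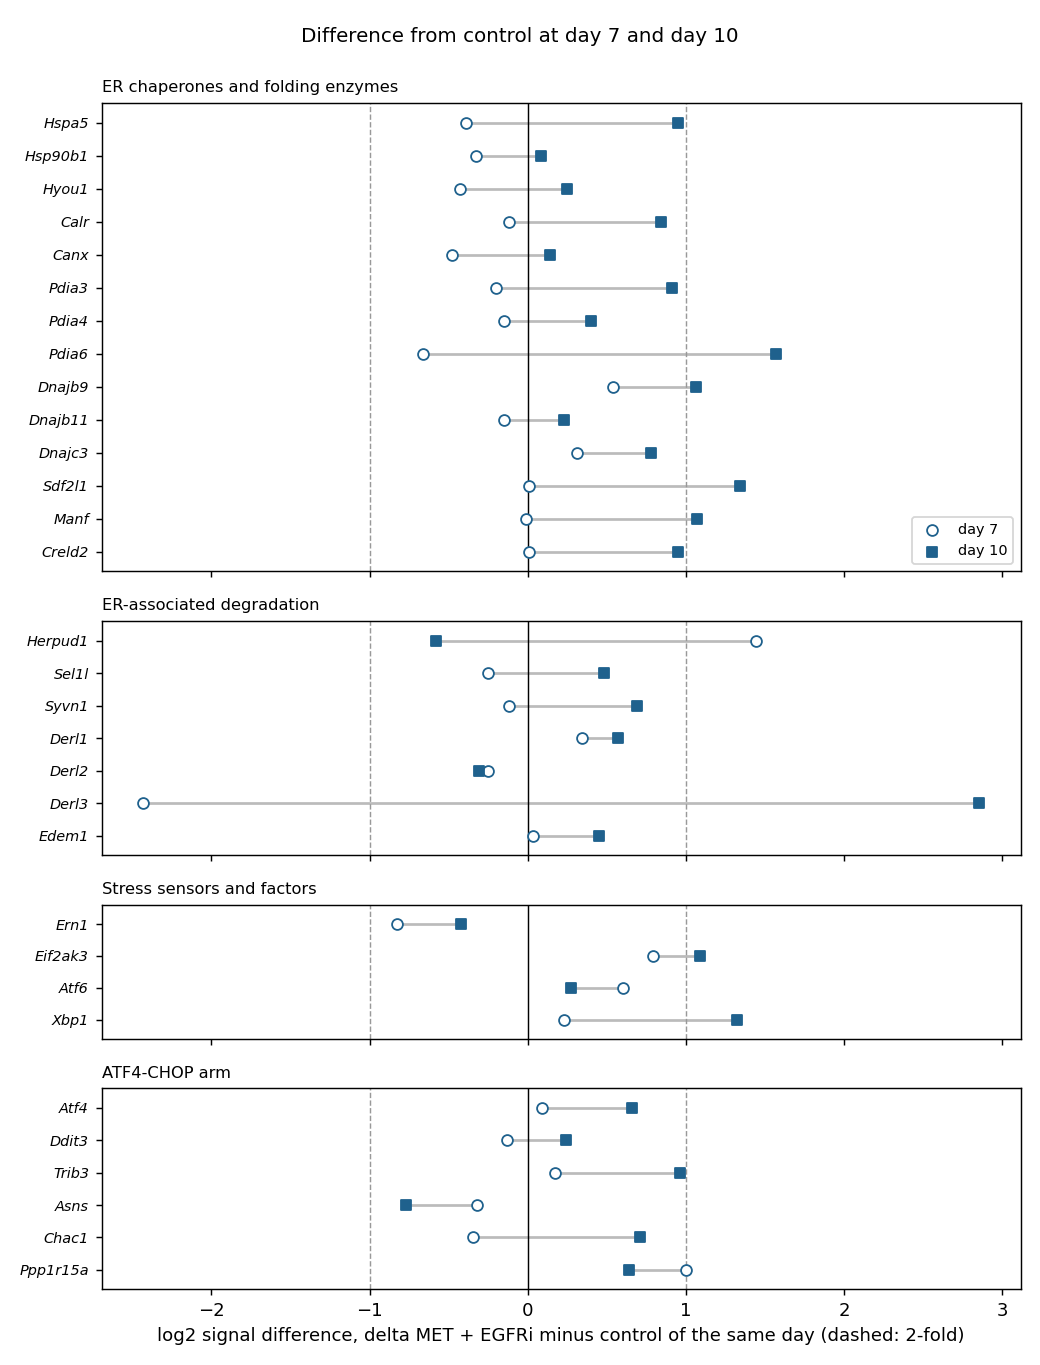
Log2 signal difference of treated minus control livers of the same day (horizontal axis) for each gene, with open circles for day 7, filled squares for day 10 and dashed lines at 2-fold. In the chaperone panel all 14 squares lie right of 0 and right of their circles, while Herpud1 has the widest gap in the other direction (1.44 at day 7 and -0.58 at day 10).

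Some promoters of these genes carry a known stress element. The ER stress response element (ERSE), to which ATF6 and the factor NF-Y bind, has the letters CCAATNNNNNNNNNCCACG and was searched on both strands of RefSeq promoter windows (GRCm38.p6, 250 bases before to 50 after the gene start). It was found in 9 of the 27 genes with a window, 7 of them chaperones (Hspa5, Hsp90b1, Calr, Canx, Pdia6, Dnajc3 and Creld2) and 2 of ER-associated degradation (Syvn1 and Derl3). Of all 32851 windows 39 held it, or 0.119%. The element was first described in promoters of genes of this kind, so its presence here is no independent finding. Of the 4 chaperones at least 2-fold higher at day 10, Pdia6 held a match, Dnajb9 and Sdf2l1 held none, and Manf has no window. Hsp90b1 and Canx held matches with day 10 differences of 0.08 and 0.14. The 10 matches are shown so that they can be compared between these genes. Each is written 5′ to 3′ on the strand that reads CCAAT first, with 6 bases on either side and the fixed letters in capitals, and lies at the place given after its gene.
Hspa5, chr2:34772019-34772049, plus strand: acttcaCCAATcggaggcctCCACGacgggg
Hsp90b1, chr10:86705632-86705662, minus strand: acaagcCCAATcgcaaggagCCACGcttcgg
Hsp90b1, chr10:86705527-86705557, plus strand: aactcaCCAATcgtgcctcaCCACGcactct
Calr, chr8:84847069-84847099, plus strand: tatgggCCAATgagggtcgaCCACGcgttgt
Canx, chr11:50325794-50325824, minus strand: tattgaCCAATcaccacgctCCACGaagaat
Pdia6, chr12:17266485-17266515, plus strand: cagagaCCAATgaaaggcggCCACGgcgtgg
Dnajc3, chr14:118937821-118937851, plus strand: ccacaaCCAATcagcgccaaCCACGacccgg
Creld2, chr15:88819514-88819544, minus strand: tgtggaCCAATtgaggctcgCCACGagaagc
Syvn1, chr19:6046526-6046556, plus strand: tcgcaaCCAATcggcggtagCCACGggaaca
Derl3, chr10:75893236-75893266, minus strand: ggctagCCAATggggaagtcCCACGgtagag

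Hspa5, the gene of BiP, is shown with its whole window on the plus strand (chr2:34771840-34772139), the fixed ERSE letters in capitals. The match spans positions -65 to -47 from the gene start.
Hspa5 promoter: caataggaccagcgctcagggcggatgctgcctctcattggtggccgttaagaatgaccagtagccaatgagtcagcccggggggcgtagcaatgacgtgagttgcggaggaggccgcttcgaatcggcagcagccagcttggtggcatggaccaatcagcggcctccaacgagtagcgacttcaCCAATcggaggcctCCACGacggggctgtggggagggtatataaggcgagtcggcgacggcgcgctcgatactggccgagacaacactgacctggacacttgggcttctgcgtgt

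The 9 genes with an ERSE match had median log2 differences of -0.33 at day 7 and 0.84 at day 10, with 9 of 9 higher at day 10. For the 18 without one the medians were -0.06 and 0.56, with 14 of 18 higher at day 10. Of all genes 50.6% were higher at that day. Outside these 31 genes 7 kept genes held the element (Acacb, Acnat2, Adcy3, Alg12, Ero1b, Pan2 and Spats2l), with medians of 0.25 and 0.24. The relation of the element to the signals was not tested. The related element ERSE-II (ATTGGNCCACG) was found in Herpud1 and Dnajb11 and in 0.0365% of windows, and overlapped no other match. The core TGACGTGG of a further element bound by XBP1 and ATF6, the UPRE, was in none of the 27 windows and in 0.676% of all windows. ERSE-II is shown with 6 bases on either side, because Herpud1 is the 1 gene of the 31 whose difference was at least 2-fold smaller at day 10 than at day 7.
Herpud1, chr8:94386371-94386393, plus strand: gcgctgATTGGgCCACGttggac
Dnajb11, chr16:22857846-22857868, plus strand: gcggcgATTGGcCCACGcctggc

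**Figure D3:**
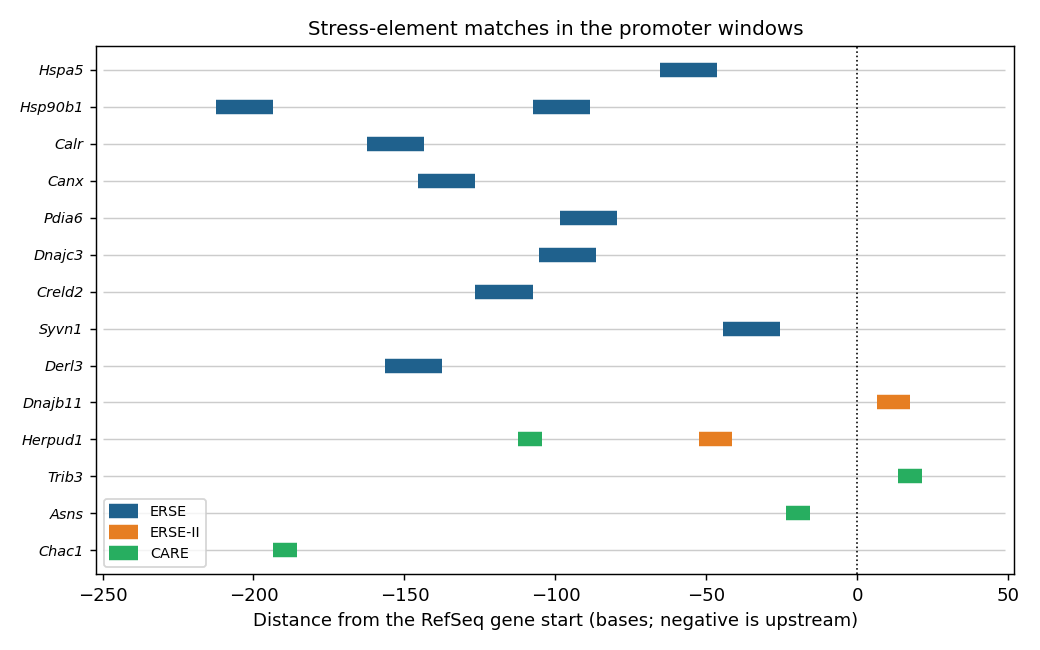
Position of each match to ERSE, ERSE-II and CARE (an ATF4 element) in the promoter windows of 14 genes, as distance from the RefSeq gene start in bases (horizontal axis, negative upstream). The ERSE matches lie between positions -212 and -26, and Herpud1 is the gene with 2 kinds of element.

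The 7 genes of ER-associated degradation, which carry misfolded proteins out of the ER for ubiquitination, were less uniform. At day 7, 3 were higher and 4 lower (median -0.12), and at day 10, 5 were higher and 2 lower (median 0.48). Of all genes 45.1% were higher at day 7 and 50.6% at day 10. None passed limma's test over both days (adjusted p from 0.515 to 0.958).

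Herpud1, a membrane protein that helps assemble the degradation complex, ran against the chaperones. Its signal was 9209 units in treated and 3392 in control livers at day 7, and 4323 in treated and 6442 in control livers at day 10. The treated array of day 7 was thus the highest of the 4 and the control array of day 7 the lowest. The log2 differences were 1.44 and -0.58, and a separate probe set gave 1.56 and -0.11. Between the days the treated signal changed by -1.09 and the control signal by 0.93 on the log2 scale, so both groups contributed to the contrast. The whole Herpud1 window on the plus strand (chr8:94386179-94386478) is shown because it holds ERSE-II and, on the other strand, the ATF4 element CARE described below, with the fixed letters of both in capitals.
Herpud1 promoter: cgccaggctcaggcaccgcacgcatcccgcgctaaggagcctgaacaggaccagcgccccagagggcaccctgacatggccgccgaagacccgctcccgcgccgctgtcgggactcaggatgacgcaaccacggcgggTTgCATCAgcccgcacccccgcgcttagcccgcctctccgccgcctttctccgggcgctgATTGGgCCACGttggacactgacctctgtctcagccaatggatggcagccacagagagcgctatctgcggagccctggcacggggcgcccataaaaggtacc

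Derl3, a channel subunit best known from highly secretory cells, had the widest swing of all 31 genes. Treated livers had 171.6 units at day 7 and 1311 at day 10, and control livers 926.8 at day 7 and 181.7 at day 10. It was 5.4-fold lower at day 7 and 7.22-fold higher at day 10, and between day 7 and day 10 the control signal changed by -2.35 and the treated signal by 2.93 on the log2 scale. Derl3 had 1 probe set. Its signals of 171.6 and 181.7 units lay under 204 units, the level that the filter on dim genes sets for a gene's mean. The summed signal of 4 pancreatic acinar markers was 1948 units at day 7 and 2204 at day 10 in treated livers, and 3938 and 1696 in control livers, with Cpa1 at or under the floor on all arrays. Cela1 made up most of that sum, with 1023 and 1463 units in treated and 2993 and 1171 in control livers. The summed signal of 10 plasma and B cell markers was 10919 and 11714 in treated and 10746 and 11398 in control livers. Sdc1 made up most of it, with 6619 and 7162.5 units in treated and 7159 and 7763 in control livers. Of the 10 markers 2 were higher at both days, among them Jchain by 3.50 and 3.09 on the log2 scale, and 4 were lower. The part of such cells in the Derl3 signal was not tested.

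The other degradation genes stayed within 2-fold at both days in their brightest probe sets. Sel1l, the adaptor of the ubiquitin ligase that Syvn1 (HRD1) encodes, had 2780 units in treated and 3301 in control livers at day 7, and 3873 and 2768 at day 10. Syvn1 had 2097 in treated and 2272 in control livers at day 7, and 2690 and 1667 at day 10. For both genes the treated array of day 10 was the highest. The 4 other probe sets of Sel1l differed by -0.74 to 0.20 at day 7 and by 0.02 to 0.70 at day 10, and that of Syvn1 by -0.70 and 0.71. Derl1 differed by 0.34 and 0.57, with both treated arrays above both controls, and Derl2 by -0.25 and -0.31, with both treated arrays below both controls. The 3 other probe sets of Derl1 differed by -0.26 to 0.25 at day 7 and by 0.72 to 1.06 at day 10, the last over 2-fold, and that of Derl2 by -0.49 and -0.31. Edem1, which marks glycoproteins for disposal, differed by 0.03 and 0.45, and its other probe set by 0.13 and 1.03.

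The sensors did not move together. Eif2ak3, which encodes PERK, had the lowest p of the 31 genes. Its signal was 1054 and 1123 units in treated livers and 608.7 and 529.2 in control livers, at day 7 and day 10, and the groups did not overlap. The log2 difference over both days was 0.94 ± 0.21 (limma, adjusted p = 0.166), or 1.92-fold. Its 2 other probe sets lay under the filter on dim genes.

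Ern1, which encodes IRE1, lay on the other side, with 1049 and 1556 units in treated livers at day 7 and day 10, both below the 1868 and 2087 of control livers. The log2 difference was -0.63 ± 0.26 (limma, adjusted p = 0.41). A second probe set above the filter gave 0.10 at day 7 and -0.65 at day 10. Atf6 had 1726 and 1732 units in treated livers, both above the 1140 and 1435 of control livers, with a log2 difference of 0.43 ± 0.22 (limma, adjusted p = 0.493). Its second probe set gave 0.42 and 0.12.

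Xbp1, the transcription factor mRNA that IRE1 splices and that ATF6 induces, was higher at both days. Treated livers had 15264 units at day 7 and 25376 at day 10, and control livers 13021 and 10180. Neither group overlapped the other, and the difference was 0.23 at day 7 and 1.32 at day 10. Over both days it was 0.77 ± 0.30 (limma, adjusted p = 0.389), and for the day 10 array against both controls 1.14, or 2.2-fold. Other probe sets gave day 10 differences of 1.22, 1.75 and 0.29, and day 7 differences of 0.32, 0.05 and -0.90. These probes read total Xbp1 mRNA and do not tell its spliced form.

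The ATF4-CHOP arm, which PERK and the amino acid sensor GCN2 share, was split at day 7 and mostly higher at day 10. At day 7, 3 of its 6 genes were higher and 3 lower (median -0.02), and at day 10, 5 were higher and 1 lower (median 0.65). The shares of all genes that were higher were 45.1% and 50.6%. In their brightest probe sets none was at least 2-fold from control at day 10, where 5.84% of all genes were higher and 4.91% lower. At day 7, 1 was at least 2-fold higher (4.6% of all genes). At 1.5-fold, 4 were higher and 1 lower at day 10, against 14.6% and 13.5% of all genes.

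Atf4 had 5151 and 6089 units in treated livers at day 7 and day 10, against 4846 and 3846 in control livers, a log2 difference over both days of 0.38 ± 0.23 (limma, adjusted p = 0.568). Its second probe set gave -0.13 and 0.15, less than the 0.09 and 0.66 of the brightest. Ddit3, which encodes the death-linked factor CHOP, had 310.2 and 366.3 units in treated and 340.4 and 310.7 in control livers. Its groups overlapped, and its log2 difference was 0.05 ± 0.29 (limma, adjusted p = 0.963). Trib3, a pseudokinase induced by ATF4 and CHOP, had 469.6 and 664 units in treated and 418.7 and 341.6 in control livers, and its second probe set showed more, with differences of 1.70 and 2.21. Ppp1r15a, the phosphatase subunit that ends the block of translation by PERK, had 720.3 and 873.7 units in treated livers, above the 359.9 and 559.9 of control livers (log2 0.82 ± 0.29, limma adjusted p = 0.347). Chac1, an enzyme that breaks down glutathione, had 772.4 and 1224 units in treated and 982.2 and 745.7 in control livers, and the groups overlapped.

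Asns, asparagine synthetase and a classical ATF4 target, was lower. It had 2684 and 2418 units in treated livers at day 7 and day 10, both below the 3339 and 4123 of control livers. The log2 difference was -0.54 ± 0.22 (limma, adjusted p = 0.396). Its second probe set gave 0.40 at day 7 and -0.45 at day 10.

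The C/EBP-ATF element (CARE, TGATGNAA), at which ATF4 acts, was found in the windows of 3 of the 6 genes of this arm (Trib3, Asns and Chac1) and in Herpud1, and in 3.97% of all windows. The 4 matches are shown to set them beside these signals, 5′ to 3′ on the strand that reads TGATG, with 6 bases on either side and the fixed letters in capitals. Of the 4 genes, 2 were higher and 2 lower at day 7, and 2 higher and 2 lower at day 10.
Trib3, chr2:152344033-152344052, plus strand: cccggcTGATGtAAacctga
Asns, chr6:7693219-7693238, minus strand: gccacaTGATGaAActtccc
Chac1, chr2:119351043-119351062, minus strand: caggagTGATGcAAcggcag
Herpud1, chr8:94386311-94386330, minus strand: gcgggcTGATGcAAcccgcc

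Further genes of the same pathways were counted from 6 lists, and 0 of their 116 kept genes passed limma's test over both days. At an unadjusted p under 0.05, 9 of the 116 were higher and 1 lower, against 5.93% and 6.15% of all genes. The translocon and signal peptidase genes, which feed new proteins into the ER, were the list closest to the chaperones. Of 18, 12 were lower at day 7 (median -0.12) and 17 higher at day 10 (median 0.69), 4 of them at least 2-fold (5.84% of all genes). Of all 11993 genes 6580 were lower at day 7, and 50.6% were higher at day 10. With the day 10 treated array against both controls, Ssr4 was 2.94-fold higher, Sec61b 2.38-fold and Sec61a1 2.18-fold. Ssr4, a subunit of the translocon-associated complex, had 7116 and 16795 units in treated livers at day 7 and day 10, and 5386 and 6040 in control livers. Sec61b and Sec61a1 were lower at day 7, at -0.71 and -0.24 on the log2 scale. Sec63 was higher by 0.51 and 0.31 and Srpr by 0.19 and 0.60, while Sec62 differed by -0.12 and -0.25. Of 24 further folding enzymes 13 were higher at day 7 (median 0.03) and 21 at day 10 (median 0.29), against 45.1% and 50.6% of all genes. With the day 10 array against both controls the disulfide isomerase P4hb was 1.81-fold higher, the prolyl isomerase Ppib 2.01-fold and the folding sensor Uggt1 2.59-fold. Pdia5 was higher at both days, by 1.36 and 0.84, and Erp29 by 0.61 and 0.68, while Fkbp11 differed by -0.08 and -0.34 and Serp1 by -0.15 and -0.03.

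The 22 further degradation genes had medians of 0.30 and 0.08. Among them Ube2j1 was higher by 0.97 and 0.51, Os9 by 0.48 and 0.77 and Edem3 by 0.40 and 0.50, and Erlin1 was lower, at -0.81 and -0.41, as were Erlin2 and Ube2j2. Of 28 further ATF4 targets and amino acid response genes 15 were higher at day 7 and 16 at day 10 (medians 0.06 and 0.11). Of all genes 45.1% and 50.6% were higher. Their extremes lay far apart. Ddit4, an inhibitor of mTOR signalling, had 1564 and 675.3 units in treated and 220.8 and 290.8 in control livers. Its treated array of day 7 exceeded both controls 6.17-fold. The amino acid transporter Slc7a5 was higher by 1.37 and 2.13 and Slc38a2 by 0.88 and 0.81. The serine synthesis enzyme Phgdh was lower at day 7, 5.16-fold against both controls, and differed by -0.02 at day 10. The transsulfuration enzyme Cth was lower at day 10 against both controls, 2.09-fold, while the day 7 difference was 0.81. Shmt2 differed by -0.28 and -0.71, Tars by -0.33 and -0.39 and Sars by -0.15 and -0.12.

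**Figure D4:**
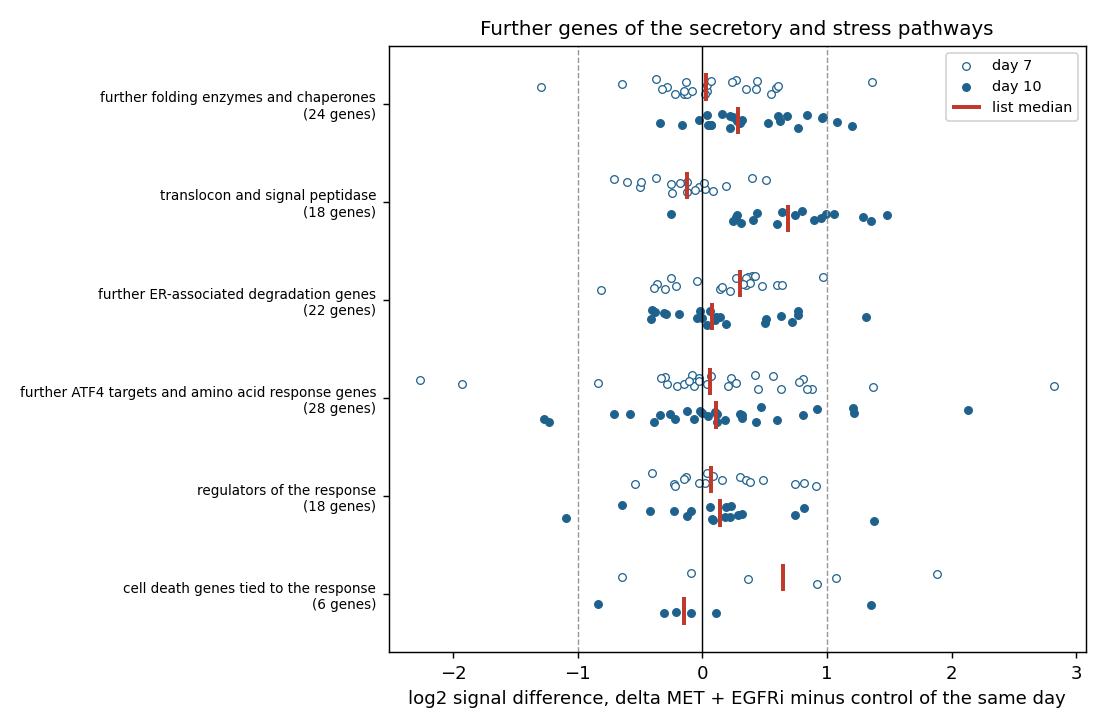
Log2 signal difference of treated minus control livers of the same day (horizontal axis) for the kept genes of 6 further lists, open circles for day 7 and filled circles for day 10, with a red bar at each list's median and dashed lines at 2-fold. The translocon list shifts to a median of 0.69 at day 10, and the degradation and ATF4 target lists have medians of 0.08 and 0.11 at that day.

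The 18 regulators had medians of 0.07 and 0.14. The ER-anchored transcription factor Creb3l2 had 1325 and 1344 units in treated livers, above the 707 and 514.8 of control livers, a log2 difference of 1.14 ± 0.24 (limma, adjusted p = 0.142). Nfyb and Mbtps2, which encode a subunit of the ERSE-binding NF-Y and a protease that cleaves ATF6, were higher by 0.38 and 0.82 and by 0.49 and 0.32. The NF-Y subunits Nfyc and Nfya were lower, at -0.40 and -0.42 and at -0.22 and -0.12, and so was Eif2ak1, at -0.15 and -0.09. Of the 6 cell death genes kept, Bik was higher by 1.88 and 1.35 and Bcl2l11 by 0.92 and 0.11, and Bbc3 and Mapk8 were lower, at -0.64 and -0.84 and at -0.09 and -0.21. None of these genes passed over both days.

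The daily directions were checked on other probe sets of the same genes, which share the arrays and are no separate samples. Of 34 further probe sets above the filter, from 21 of the 31 genes, 34 had the sign of the brightest one at day 10 and 25 at day 7. In 30 of the 34 the difference from control was larger at day 10 than at day 7. It was so for 26 of the 31 brightest probe sets and for 53.1% of all genes. Several of the 34 belong to the same gene, so they are not separate counts.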

How the data were processed

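Per the submitters' processing notes the authors made the values with MAS5; its version is not stated there. Each deposited value is a probe set's intensity on a linear scale (its signal). Their mean after trimming 2% at each end lay between 499.8 and 500.003 on every array. Every column belonged to a sample of the series.

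Of 45101 probe sets 64 were controls, 34945 had 1 gene symbol in the platform annotation, 932 several and 9160 none, of which only the first kind was used. All 31 genes matched the RefSeq table (GRCm38.p6) by Entrez ID. Signals were floored at the 25th percentile of all values (64.8) before taking log2, and each gene was represented by its brightest probe set. A gene was kept if its mean log2 signal exceeded that of the middle probe set (7.67, or 204 units). Treated and control arrays (2 each) were fitted with lmFit and a trended eBayes (limma 3.58.1, R 4.3.3) without a term for day, leaving 2 residual degrees of freedom; tests were two-sided, with Benjamini-Hochberg adjustment over all 11993 genes and a threshold of 0.05. Such p-values measure the spread between pooled arrays only, and the number of arrays limits every value. Log2 differences are treated minus control. Differences between arrays of the same day were described without a test. Each treated array was also set against both control arrays, and only the difference is given, as 1 treated array holds no spread of its group.

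The genes, lists and tests were chosen with earlier results of these data known. By the rule for named genes all 31 are accounted for, array values go first to genes that pass, that differ at least 2-fold in 1 direction at both days or at least 1.5-fold in opposite directions, and to the first 2 of each role group, and each further list is shown by up to 3 genes in each direction, ranked by the smaller of the daily differences. Alternatives to the threshold, floor, filter, scaling, trend, probe set, day term and fold rule were tried, and each array was left out. Array values of the other genes, and Sec61a1, Sec61b, P4hb, Ppib, Phgdh and Cth, were added after their values were seen. The limma step was tested on simulated arrays with known changes. Promoter sequences are from RefSeq (GRCm38.p6); Hyou1, Manf, Derl1 and Atf6 have no window in the table. Protein sequences were not used here. Plots were made in matplotlib 3.10.9 under Python 3.11.15.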

Additional observations from a re-analysis of the deposited data

Results flagged for a closer look

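Pdia6 and Derl3 stand out because they were at least 1.5-fold from control in opposite directions at day 7 and day 10. Opposite signs alone were not rare, as 15 of the 31 genes were lower at day 7 and higher at day 10, against 23.8% of all genes. With 1 array a side the change between the days was not tested. Pdia6 differed by -0.66 at day 7 and 1.57 at day 10 on the log2 scale. Derl3 differed by -2.43 at day 7 and 2.85 at day 10. The median of the 14 ER chaperones was -0.15 at day 7 and 0.88 at day 10. It is listed for its change of sign and not by the 1.5-fold rule.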

How the results depend on the processing

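Over both days 0 of the 31 genes and 0 of the 116 further genes were called in either direction by limma in each of 10 alternatives that kept all arrays, among them day as a replicate block. Leaving out an array gave 0 to 7 of the 31 genes higher and 0 lower, and 0 to 6 further genes higher and 0 to 1 lower, the most without the day 7 treated array, when the spread came from the control arrays alone. Dnajb9 (log2 difference 1.12) and Xbp1 (1.14) were among the genes called in that fit. Over all genes, 45 higher and 34 lower became 93 and 69 at an adjusted p under 0.1, 24 higher with day as a replicate block, 22 and 20 when a gene's probe sets were averaged, 23 and 19 without the trend, and 0 and 0 without a filter on dim genes, where more genes were tested. Leaving out an array gave 13 to 197 higher and 9 to 269 lower. Days as pairs come from the labels, with 2 pairs. The median of the chaperones was 0.36 and ranged from -0.20 (without the day 10 treated array) to 0.87 (without that of day 7), and that of the degradation genes, 0.24, from -0.09 to 0.47. Across normalizations, floors, filters and probe rules 13 to 14 chaperones were higher at day 10 and 9 to 10 lower at day 7. At 1.5-fold, where 12.1% to 15.4% of all genes lay on each side at each day, 4 of the 31 genes were higher and 3 lower at day 7, and 17 higher and 1 lower at day 10. At 3-fold 0 were higher at day 7 and 1 at day 10. With the filter at the 75th percentile, which removed Derl3, 0 were at least 2-fold lower at day 7. A difference between the arrays of 1 day has no error of its own, and dim genes near the floor of 64.8 units have understated differences.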
